A study of Mus musculus with 8 samples.

Results

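Ribosome footprints were set against mRNA, gene by gene, in resting T cells from the spleen of B6 mice. All 4 T cell libraries of the series entered, 2 of footprints and 2 of RNA-seq, out of 8 libraries in all; the other 4 are the same assays in resting B cells. Per the labels, the cells of every group were purified with magnetic beads and then held for 2 hours in culture medium, and the labels give no genotype, age or sex. Cells for the footprint libraries also received cycloheximide, a drug that stalls elongating ribosomes, at 100 µg/ml for 15 minutes, after which nuclease digested the lysate and the mRNA pieces inside single ribosomes were sequenced. RNA-seq libraries were made from total RNA with a TruSeq RNA v2 kit, whose usual protocol selects polyadenylated RNA. The submitters' numbers are 1 and 2 for the footprint libraries and 1 and 4 for RNA-seq. Total T cells were taken, so that helper, cytotoxic, regulatory and memory cells are mixed, and in such bulk samples fewer cells of a type and less RNA per cell cannot be told apart. The labels do not say which mice each library came from, and the p-values reflect only how far these libraries of a group lie apart.

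The number of ribosomes on an mRNA depends on how many copies of the mRNA exist and on how often each copy is read. A footprint count divided by the mRNA level therefore serves as a measure of translation per mRNA, although a slow ribosome and a frequent one leave the same mark. Resting lymphocytes hold large stores of mRNA for ribosomal proteins and elongation factors. Many of those mRNAs begin with a 5′ terminal oligopyrimidine tract, the TOP motif, through which the mTOR kinase and the protein LARP1 govern their loading onto ribosomes. Other mRNAs are held back by upstream reading frames, as that of the stress factor ATF4, or by binding proteins, as the ferritin mRNAs are by the iron regulatory proteins.

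Depth was uneven between the assays. The footprint libraries held 627833 counts (library 1) and 136433 (library 2), and the RNA-seq libraries 10050986 (library 1) and 8945905 (library 4). Levels are in CPM, a count scaled by its library's total, with the totals adjusted by TMM scaling. By the totals before TMM scaling, a single count stood for 1.59 and 7.33 CPM in footprints against 0.0995 and 0.112 in RNA-seq. Counts of Xist and of Y-linked genes were 1437 and 6 in RNA-seq library 1, 3 and 1575 in library 4, 3 and 3 in footprint library 1 and 0 and 35 in library 2. Both RNA-seq libraries thus differ in sex-linked counts as female and male mice do, and Y-linked counts were higher in footprint library 2 than in the deeper library 1. The sex of the mice is not given in the labels, and its part in the spread between libraries was not tested. The 13 protein genes of the mitochondrial genome had 0 counts in every library and were not analysed here. All 15 T cell markers of the list were measured in both assays and took 0.973% and 0.667% of footprints and 0.860% and 1.03% of RNA-seq counts, and 2 of them passed with more and 2 with fewer footprints in the test of all genes.

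Footprints followed mRNA in T cells, but loosely. The 5823 protein-coding genes with a mean of at least 20 CPM in footprints and 10 in RNA-seq were compared. Their mean footprint level and mean mRNA level correlated with a Spearman rho of 0.65 (Pearson r = 0.69). The rho was 0.80 between both footprint libraries and 0.95 between both RNA-seq libraries. These correlations are across genes, which are not independent replicates. The ratio of footprints to mRNA was itself repeatable: the ratio from the number 1 libraries and the ratio from the other pair, which share no library, correlated with a rho of 0.69. Among these genes the central 90% of log2 ratios ran from -1.69 to 1.65, a 10.1-fold range. Genes near the footprint minimum had few counts in footprint library 2. Counting error is therefore part of these correlations and of the range, and its share was not tested.

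In the test of footprints against mRNA over 12187 genes, 1375 had more footprints than their mRNA level (11.3% of all tested) and 2667 had fewer (21.9%), 1203 and 2580 of them by at least 2-fold. Values are on the log2 scale, footprints over mRNA, with 0 as the average gene of the TMM scaling and n = 2 libraries in each assay; a value after ± is a standard error, and adjusted p-values are from the edgeR quasi-likelihood test with Benjamini-Hochberg adjustment. Among the 10463 protein-coding genes of that fit, 1141 (10.9%) had more and 1978 (18.9%) fewer. Counts of called members in the lists below are to be read against these shares. The median was -0.44 over all tested genes and -0.31 over protein-coding ones. With genes that lack counts in 1 assay placed at their bound, the medians were -0.30 and -0.25. Of all tested genes 1418 had no footprint count and 49 no RNA-seq count. The 1418 passed the filter through RNA-seq and could lie only on the side of fewer footprints. The balance of more and fewer thus depends in part on the filter. The libraries of the 2 assays did not overlap for 8650 of the 12187 genes (71.0%), so that separation alone marks few genes out. The split of the calls moved with the choice of genes and tool. Genes with more footprints were 34.02% of all calls, but 45.1% (1476 more and 1797 fewer) when protein-coding genes alone were fitted, 44.1% (1415 and 1795) with a mean of at least 10 CPM, 45.2% (1234 and 1496) in DESeq2 and 51.9% (1170 and 1083) in limma voom. TMM factors taken from protein-coding genes alone moved the median of all genes by 0.15. Without footprint library 1, the deeper of the pair, 715 genes had more and 1143 fewer.

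**Figure D1:**
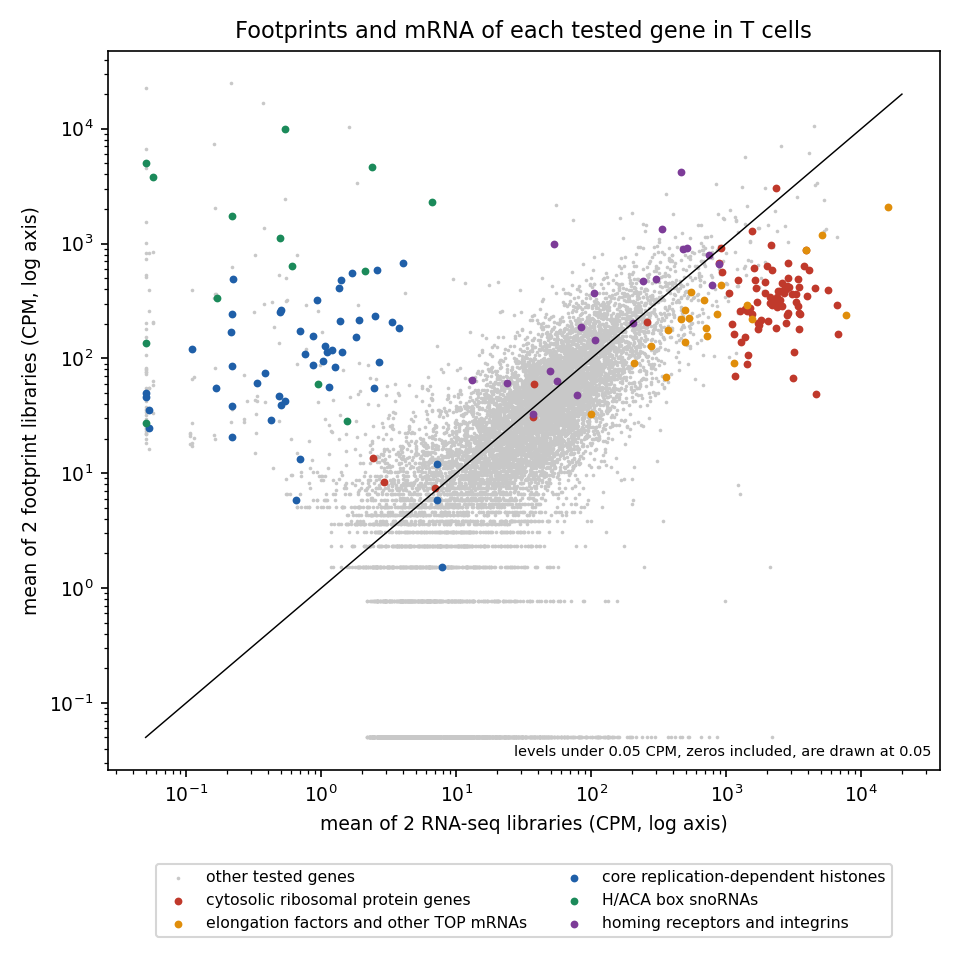
Mean level of each of the 12187 tested genes in T cells, RNA-seq on the x axis and footprints on the y axis, both in CPM on log axes; each point is a gene, 5 gene lists are coloured and the line marks equal levels. Most of the 82 ribosomal protein genes lie below the line at high mRNA levels, most homing receptors lie near or above it, and most histones and H/ACA snoRNAs stand far above it at low mRNA levels.

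The ribosomal protein genes had much mRNA and few footprints. All 82 cytosolic ribosomal protein genes were tested, 71 had fewer footprints than mRNA, 1 had more and 10 did not pass, with a median of -2.78 against -0.31 for protein-coding genes. Together they took 18.9% and 17.6% of the RNA-seq counts in libraries 1 and 4 but 3.61% and 2.72% of the footprints in libraries 1 and 2. The start of these mRNAs is the feature their control is known for, so the 5 bases before and the 20 bases from the RefSeq start are shown for 6 ribosomal protein genes and for 3 of the protein-coding genes with the highest ratio. The 6 were picked from the 14 ribosomal protein genes that carry the tract at that base and the 3 from those that lack it, to show what was searched for; Rpl38, which carries it too, stood at -0.70 and did not pass. Capitals mark a run that begins with C at the start itself and goes on with at least 4 bases that are C or T, searched on the gene's own strand. The sequences are from RefSeq on GRCm38.p6, 5′ to 3′ on the gene's strand.
Rps18 (chr17:33955646-33955670, minus strand): ccgctCTCTCTTCCacaggaggcct
Rps15a (chr7:118116128-118116152, minus strand): gccatCTTCCCTCgccggtgagtga
Rpl28 (chr7:4792960-4792984, plus strand): tgtctCTCTTTCCgtctccggccgc
Rps6 (chr4:86857348-86857372, minus strand): cgggcCTCTTTTTCgtgacgcctcc
Rps10 (chr17:27635225-27635249, minus strand): cgcccCTTCCTTTCCagcctccgcc
Fau (chr19:6057942-6057966, plus strand): cacttCTTCCTCTTTCTTgactcca
Lnpep (chr17:17624470-17624494, minus strand): tgctcagtcgtcaggaccgcttcgg
P2ry10 (chrX:107088487-107088511, plus strand): gctgcaaagtctaagtgtggttctt
Cxcr4 (chr1:128592280-128592304, minus strand): acttcaattttgttgcctggtgcag

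Of the 82 ribosomal protein genes 61 had a start sequence, and 14 of these (22.95%) carried the run at the annotated base, against 251 of 8447 protein-coding genes (2.97%). Allowing the run to begin within 5 bases of the start, the shares were 30 of 61 (49.2%) and 2029 of 8447 (24.02%). The run did not sort the ribosomal protein genes among themselves: the median log2 difference was -2.71 with it and -2.78 without it. Across all protein-coding genes the medians were -0.59 with the run and -0.32 without. Of the 10 protein-coding genes with the highest ratio, 2, Tigit and Serpinb9, carried the run too. Transcript starts were not measured in these libraries, and RefSeq's start can lie some bases from the one used in T cells.

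Among ribosomal protein genes, Rpl12 had the lowest ratio. Rpl12, a protein of the large subunit's stalk base (ENSMUSG00000038900, chr2:32961712-32964045), stood at 47.6 and 50.1 CPM in footprint libraries 1 and 2 and at 4871 and 4301 CPM in RNA-seq libraries 1 and 4. The assays were far apart, with a log2 difference of -6.57 ± 0.42 (adjusted p = 4.58e-05). Rpsa, a small-subunit protein also known as the laminin receptor, stood at 150 and 179 CPM in footprints and 6846 and 6653 in RNA-seq (-5.38 ± 0.41, adjusted p = 0.000101). Rpl17, which lines the peptide exit tunnel, stood at 76.7 and 57.2 CPM against 3403 and 2803 (-5.47 ± 0.40, adjusted p = 8.57e-05). Each overlaps a snoRNA gene, Snora65, Snora62 and Snord58b. For all 3 the highest footprint library lay far below the lowest RNA-seq library. The interquartile range of the list was -3.26 to -2.09. Rps18, Rps15a, Rpl28, Rps6, Rps10 and Fau, shown above, stood at -4.67, -4.20, -3.16, -2.83, -2.78 and -2.63.

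The exceptions were few and chosen here after their values were seen. Rpl22 stood at 953 and 880 CPM in footprints and at 966 and 873 in RNA-seq (log2 difference 0.00), and Rpl7a at 1442 and 1116 against 1648 and 1431 (-0.26). Rpl9 had 4637 and 1416 CPM in footprints against 2608 and 2046, so that its assays overlapped. Rpl24 alone was called with more footprints (2.74 ± 0.65, adjusted p = 0.0153), on 13 and 1 footprint counts and 28 and 16 RNA-seq counts, a level well under that of other ribosomal protein genes. It overlaps Zbtb11. Ribosomal protein genes have many processed pseudogenes, and a short footprint can match several copies, so values of single members are uncertain. Of the 41 members that overlap no other annotated gene, 34 had fewer footprints and 0 more, with a median of -2.73. The part of multiply matching reads was not tested.

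Other mRNAs of the TOP class, the elongation factors among them, lay on the same side. Of 22 tested, 21 had fewer footprints, 0 had more, and the median was -1.78. They took 4.53% and 3.98% of RNA-seq counts and 0.879% and 0.784% of footprints. Eef1a1, which brings aminoacyl-tRNA to the ribosome (ENSMUSG00000037742, chr9:78478453-78481724), had 2086 and 2110 CPM in footprints against 17901 and 13846 in RNA-seq (-2.92 ± 0.41, adjusted p = 0.00178). Eef2, the translocation factor, had 1143 and 1223 against 5749 and 4431 (-2.11 ± 0.35, adjusted p = 0.00369). Tpt1, translationally controlled tumour protein, had 281 and 200 against 7927 and 7506 (-4.97 ± 0.42, adjusted p = 0.000173). In each of these genes the libraries of the 2 assays were fully separated. Eef1g, a subunit of the factor that recharges eEF1A, stood at -3.61 ± 0.32 and Pabpc1, the poly(A) binding protein, at -2.82 ± 0.34.

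The rest of the translation apparatus did not share this position. Of 37 initiation factor genes 5 had fewer footprints, 4 had more and 28 did not pass (median -0.30). Eif1, a start-codon selection factor whose own start codon lies in a poor context, had fewer (-1.67 ± 0.33) and Eif5, its counterpart in start-codon recognition, more (1.48 ± 0.30, on 807 and 808 CPM against 346 and 233; it overlaps Snora28). Of 22 aminoacyl-tRNA synthetase genes 4 had more footprints and 0 fewer (median 0.28), led by Eprs at 2.16 ± 0.31, with Iars at 1.17 ± 0.27 and Gars at 1.11 ± 0.23. Of 77 mitochondrial ribosomal protein genes, which belong to the organelle's own ribosome, 12 had fewer and 3 more (median -0.55), with Mrps26 at -2.14 ± 0.35, Mrpl24 (Rrnad1) at -1.74 ± 0.28 and Mrpl50 at 1.40 ± 0.33. Regulators of mRNA decay and translation lay towards more, 11 of 35 against 5 fewer (median 0.55). Elavl1, an mRNA-stabilising protein, stood at 1.40 ± 0.26, Celf2 at 1.39 ± 0.25 and Paip2, an inhibitor of poly(A) binding protein (Slc23a1), at 1.30 ± 0.25. Eif4ebp2, a cap-binding inhibitor that mTOR phosphorylates, had 52.2 and 50.1 CPM in footprints against 278 and 298 in RNA-seq (-2.48 ± 0.28, adjusted p = 0.000620).

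The other end of the order was read from single genes. The 10 protein-coding genes with the largest difference were Ramp3, Lnpep, Nr4a3, P2ry10, Cxcr4, Fosl2, Nr4a2, Tgif1, Tigit and Serpinb9. They were taken from genes that passed, with separated libraries and at least 10 CPM in RNA-seq and 20 in footprints. Lnpep, an aminopeptidase of the cell surface and of endosomes (ENSMUSG00000023845, chr17:17527723-17624489), had 479 and 393 CPM in footprints and 19.3 and 15.6 in RNA-seq (4.65 ± 0.29, adjusted p = 4.10e-05). Cxcr4, the chemokine receptor that retains lymphocytes in bone marrow (ENSMUSG00000045382, chr1:128588199-128592299), had 919 and 1073 CPM against 44.9 and 60.3 (4.24 ± 0.32, adjusted p = 9.83e-05). P2ry10, a G protein-coupled receptor for lysophospholipids (ENSMUSG00000050921, chrX:107088492-107104974), had 2145 and 1073 against 74.2 and 72.6 (4.47 ± 0.42, adjusted p = 0.000286). In all 3 both footprint libraries lay above both RNA-seq libraries, which the choice of the 10 required. Ramp3, a receptor activity-modifying protein, had the highest value (5.19 ± 0.56) on 233 and 665 CPM against 8.20 and 15.1; it overlaps Gm11978. Tigit, an inhibitory receptor, lies within Zbtb20 in the annotation (3.53 ± 0.31), and Serpinb9, the granzyme B inhibitor, stood at 3.36 ± 0.32. Tigit, Nr4a2, Serpinb9 and Ramp3 thus overlap another gene. Whether strand was used in counting is not stated in the labels, so reads of overlapping genes, also of genes named below with their partner in brackets, cannot be assigned with certainty.

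**Figure D2:**
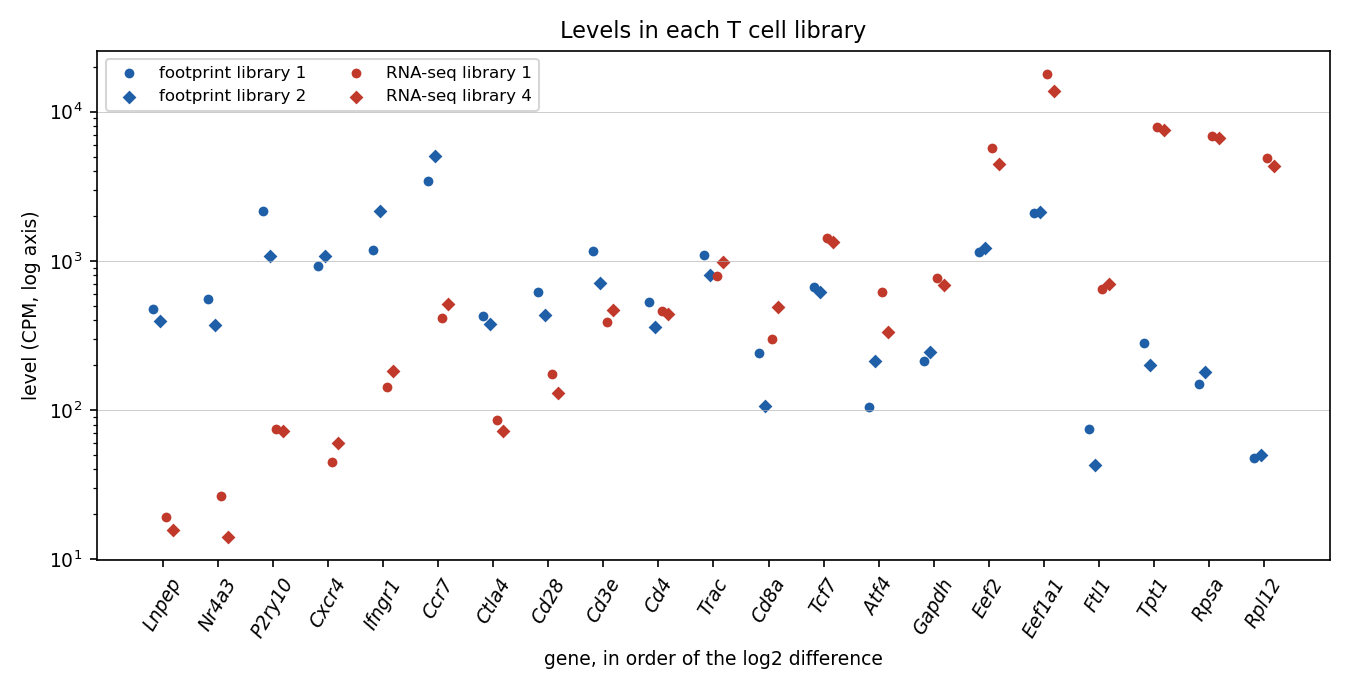
Level of 21 genes in each T cell library, in CPM on a log axis. The genes are in falling order of the log2 difference, except that Cd4 is drawn before Trac. Blue marks footprints, red RNA-seq, circles the libraries numbered 1 and diamonds the others. Blue lies above red from Lnpep to Cd3e, the colours meet at Cd4 and Trac, and red lies above blue from Cd8a on, by the widest margin for Rpl12 (47.6 and 50.1 against 4871 and 4301 CPM).

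Receptors that guide T cell traffic had more footprints per mRNA. Of 20 homing receptor and integrin genes 8 passed with more, 0 with fewer, and the median was 0.81. Ccr7, the receptor for entry into lymph nodes (ENSMUSG00000037944, chr11:99144199-99155077), stood at 3429 and 5014 CPM in footprints and at 416 and 513 in RNA-seq (3.18 ± 0.37, adjusted p = 0.000759). Cd44, the hyaluronan receptor, had 382 and 365 CPM against 104 and 104 (1.85 ± 0.25, adjusted p = 0.00136; it overlaps Gm23731). The 2 assays did not overlap for either gene.

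Cytokine receptor genes leaned the same way, with 7 of 22 passing with more footprints and 2 with fewer (median 0.49). Ifngr1, the ligand-binding chain of the interferon gamma receptor, stood at 1174 and 2174 CPM in footprints against 143 and 183 in RNA-seq (3.35 ± 0.39, adjusted p = 0.000759). Tnfrsf1b, a receptor for tumour necrosis factor, stood at 2.14 ± 0.28 and Il21r at 1.88 ± 0.29. Il27ra was the opposite case, with 138 and 93.0 CPM in footprints against 302 and 301 (-1.31 ± 0.28, adjusted p = 0.0104; it overlaps Palm3). Il7r, the receptor for the survival cytokine interleukin 7, had 420 and 329 CPM against 269 and 374, so that its assays overlapped (0.24 ± 0.29, adjusted p = 0.555).

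Of the 14 genes of the antigen receptor complex and its coreceptors 6 had fewer footprints, 1 more and 7 did not pass (median -1.07). The 6 were the constant-region genes Trbc1, Trbc2, Tcrg-C4 and, named here because they made up the count, Trdc, Tcrg-C1 and Tcrg-C2. Trbc2, a constant region of the receptor's beta chain, had 353 and 143 CPM against 1052 and 1394 (-2.22 ± 0.42, adjusted p = 0.00652). Each of these genes overlaps a RefSeq record of its receptor locus, and Trbc1 and Trbc2 are near-identical copies, so these values are uncertain. Trbc1 and Trbc2 also lost the call in the edgeR fit of all 8 libraries (adjusted p = 0.279 and 0.141). When protein-coding genes alone were fitted, which leaves the constant regions out, the median was 0.15. Cd3e, a signalling chain of the complex, was the member with more footprints, at 1163 and 708 CPM against 391 and 465 (1.14 ± 0.33, adjusted p = 0.0296). Cd3e lost the call in the edgeR fit of all 8 libraries (1.10, adjusted p = 0.364) and against a 1.5-fold change. Without footprint library 1 it stood at 0.74. The coreceptor gene Cd4 had 529 and 358 CPM in footprints against 460 and 442 (0.00 ± 0.29), and Cd8a had 242 and 107 against 300 and 490 (-1.07 ± 0.40, adjusted p = 0.0709). Trac overlapped as well, with 1103 and 801 against 793 and 979.

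Of 35 genes that act just downstream of the receptor or alongside it, 14 had more footprints and 5 fewer (median 0.26). Co-stimulatory and inhibitory receptors led. Ctla4, the inhibitory counterpart of CD28, had 425 and 379 CPM against 86.0 and 72.4 (2.35 ± 0.26, adjusted p = 0.000582). Icos stood at 2.29 ± 0.37 and Cd28 at 1.82 ± 0.30. Csk, the kinase that restrains Lck, was the lowest of the list with 149 and 129 CPM against 391 and 460 (-1.59 ± 0.27, adjusted p = 0.00427). Lck itself did not pass (-0.72 ± 0.33, adjusted p = 0.119). The list's median was -0.11 with RNA-seq thinned to the depth of footprint library 2 and -0.02 without footprint library 1.

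Transcription factors of the T lineage went both ways, with 6 of 30 passing with more footprints and 5 with fewer (median 0.18). Of all protein-coding genes 10.9% had more and 18.9% fewer. Tox, a regulator of thymic selection and of exhausted cells, stood at 1.59 ± 0.24, Myb at 1.44 ± 0.26 and Ikzf3 at 1.38 ± 0.26; Tox and Ikzf3 overlap predicted genes. Id3, an inhibitor of E proteins, had 6.14 and 7.15 CPM in footprints against 83.5 and 78.7 in RNA-seq (-3.67 ± 0.41, adjusted p = 0.000598). Tcf7, which encodes the naive and memory T cell factor TCF1, had 664 and 615 against 1427 and 1345 (-1.11 ± 0.29, adjusted p = 0.0209). Tcf7 overlaps Skp1. Its call was lost in the edgeR fit of all 8 libraries (-1.16, adjusted p = 0.362) and against a 1.5-fold change. Of 20 quiescence regulators 4 had more and 2 fewer (median 0.43). Cdkn1b, the cell cycle inhibitor p27, stood at 1.36 ± 0.26, Foxo1 at 1.01 ± 0.26 and Pdcd4 (Bbip1) at 0.94 ± 0.29, whereas Foxo4 stood at -1.53 ± 0.41. Klf2 had 551 and 944 CPM against 778 and 800 and did not pass (-0.10 ± 0.33, adjusted p = 0.849). Of the 8 GIMAP GTPases, which support lymphocyte survival, Gimap6 had more footprints (1.97 ± 0.32) and Gimap1 (-1.57 ± 0.29) and Gimap3 (-1.13 ± 0.33) fewer.

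Immediate-early genes, which respond within minutes to stimulation and to cell handling, lay on both sides. Of 28, 4 had more footprints and 6 fewer (median -0.09), counts near the shares of all protein-coding genes (10.9% and 18.9%). Nr4a3, an orphan nuclear receptor induced by antigen receptor signals, stood at 552 and 372 CPM in footprints against 26.6 and 14.1 in RNA-seq (4.53 ± 0.40, adjusted p = 0.000226). Fosl2 (3.70 ± 0.43) and Nr4a2 (3.68 ± 0.44) belonged to the same side. Fos had 160 and 114 CPM in footprints against 865 and 351 in RNA-seq (-2.10 ± 0.46, adjusted p = 0.0114). Its call was lost in the edgeR fit of all 8 libraries (-2.15, adjusted p = 0.117). Zfp36, which encodes the mRNA decay factor tristetraprolin, had 130 and 78.7 against 1175 and 460 (-2.88 ± 0.50, adjusted p = 0.00447). The RNA-seq libraries differed from each other here: the list took 1.59% of the counts of library 1 and 0.669% of those of library 4, against 0.914% and 0.854% of footprints. Without RNA-seq library 1 the list's median was 0.62.

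Stress mRNAs with upstream reading frames lay low. Of 13 tested 5 had fewer footprints and 2 more (median -0.95). Atf4, the factor of the integrated stress response, had 104 and 215 CPM in footprints against 615 and 334 in RNA-seq (-1.69 ± 0.44, adjusted p = 0.0211). Its call was narrowly lost in the edgeR fit of all 8 libraries (-1.72, adjusted p = 0.0556), and without footprint library 1 it stood at -1.14. Ppp1r15a, the phosphatase subunit that ends that response (Tulp2), had 126 and 78.7 against 1662 and 431 (-3.27 ± 0.64, adjusted p = 0.00714), and Ddit3, a proapoptotic factor of the same response (Mars1, Mbd6), had 3 and 0 footprint counts, a pooled ratio of 0.112 (95% counting interval 0.0231 to 0.330). RNA-seq library 1 was the higher one for Atf4 and Ppp1r15a, and without it the list's median was 0.35. The part of that library in these values was not tested beyond this.

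Both ferritin chains are under the same iron-responsive control, yet their ratios differed. Ftl1, the light chain, had 75.2 and 42.9 CPM in footprints against 646 and 703 in RNA-seq (-3.38 ± 0.34, adjusted p = 0.000395). Fth1, the heavy chain, had 701 and 1059 against 805 and 897, so that its assays overlapped (0.03 ± 0.31, adjusted p = 0.951). Of the 17 iron and polyamine feedback genes 4 had fewer footprints and 2 more (median -0.13). Amd1, the decarboxylase of polyamine synthesis, had 1 and 1 footprint counts, a pooled ratio of 0.0760 (95% counting interval 0.00918 to 0.276). Sms, the spermine synthase, stood at -1.60 ± 0.34 and Tfrc, the transferrin receptor, at 1.25 ± 0.28. Odc1 did not pass (0.19 ± 0.42). Ftl1 has a near-identical copy and pseudogenes, and its value is uncertain for that reason. Of 16 selenoproteins, which recode a stop codon, 4 had fewer and 0 more (median -0.20), with Gpx1 at -1.19 ± 0.26, Gpx4 at -1.14 ± 0.33 and Selenoo (Tubgcp6) at -1.82 ± 0.34.

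Among metabolic and housekeeping groups, glycolysis lay low and the proteasome and endoplasmic reticulum high. Of 19 glycolysis genes 8 had fewer footprints and 2 more (median -0.72). Gapdh had 212 and 243 CPM in footprints against 763 and 688 in RNA-seq (-1.69 ± 0.28, adjusted p = 0.00367). Eno1 stood at -2.01 ± 0.36 and Ldha (Gm39011) at -1.41 ± 0.28, while Pfkp, a phosphofructokinase, and Aldoc had more. Aldoc (1.88 ± 0.61, adjusted p = 0.0450) rested on 9 and 1 footprint counts and missed the threshold in DESeq2 (adjusted p = 0.132), in limma voom (0.0531) and without footprint library 1 (1.15, adjusted p = 0.675), with an adjusted p of 0.0369 to 0.675 over its alternatives. Glycolytic genes also have many pseudogenes. Of 76 nuclear-encoded oxidative phosphorylation genes 13 had more and 8 fewer (median 0.16). Ndufa5, a subunit of complex I, had 204 and 157 CPM against 30.7 and 30.6 (2.60 ± 0.25, adjusted p = 0.000292), and Cox7a2l, a factor of supercomplex assembly, had 38.4 and 93.0 against 619 and 545 (-3.39 ± 0.42, adjusted p = 0.000972).

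The median of a list this close to 0 has no firm side: those of oxidative phosphorylation (-0.02 to 0.35), replacement histones (-0.11 to 0.38), iron and polyamine genes (-0.46 to 0.12), cytosolic chaperones (-0.05 to 0.55), GIMAP GTPases (-0.37 to 0.12) and actin genes (-0.35 to 0.31) changed sign among 16 alternative settings.

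Of 36 proteasome subunit genes 11 had more footprints and 2 fewer (median 0.51). The ATPase genes Psmc6 (1.56 ± 0.27) and Psmc2 (1.53 ± 0.25) led, and Psme2, of the interferon-inducible activator, stood at -1.14 ± 0.27. Of 29 genes of endoplasmic reticulum chaperones and the translocon, 11 had more and 2 fewer (median 0.30). Sec62 stood at 1.97 ± 0.25, Hsp90b1 at 1.91 ± 0.27 and Ssr1 at 1.58 ± 0.26, but Sec61g, the smallest translocon subunit, at -1.30 ± 0.31. Of 23 cytosolic chaperone genes 4 had more and 2 fewer (median 0.11). Hspa4 stood at 1.12 ± 0.25 and Hspa8, which overlaps 3 snoRNA genes, at -2.27 ± 0.41. Its RNA-seq level was 2490 CPM in library 1 and 1283 in library 4. The heat-shock gene Hspa1b, picked here with its values known, stood at 774 CPM in RNA-seq library 1, 2.27 in library 4 and 0 footprint counts, and did not pass (adjusted p = 0.0952).

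Of 32 genes of SR proteins and hnRNPs, the regulators of splicing, 10 had fewer footprints and 4 more (median -0.30). Hnrnpf (-2.00 ± 0.28), Srsf3 (-1.92 ± 0.27) and Srsf2 (Mfsd11; -1.63 ± 0.28) were low. The actin list of 32 genes held 5 with more and 4 with fewer (median 0.01). Its most abundant mRNAs differed from each other. Actg1, cytoplasmic gamma actin, had 466 and 372 CPM in footprints against 1668 and 1839 (-2.05 ± 0.31, adjusted p = 0.00250). Actb, beta actin, had 8462 and 3898 against 3062 and 5141, so that its assays overlapped (0.59 ± 0.47, adjusted p = 0.360). Their coding sequences are close to identical, and reads that match both cannot be assigned with certainty. In MHC class I presentation 5 of 15 had fewer and 2 more (median -0.65). B2m, the shared light chain (Patl2), had 8327 and 5765 CPM against 2535 and 2589 (1.46 ± 0.37, adjusted p = 0.0193). The heavy-chain family gene H2-T22 had 26.1 and 21.5 against 331 and 315 (-3.69 ± 0.31, adjusted p = 0.000179). H2-Q7 (-1.40 ± 0.30) and H2-T23 (-1.29 ± 0.28) lay on the same side. Class I heavy chains are a family of close copies, so that single values are uncertain. Of 14 BCL2 family genes 2 had more footprints and 1 fewer (median -0.18, or -0.12 with 1 gene at its bound), with Bcl2a1b at 4.03 ± 0.45 on 35 and 6 footprint counts, a gene with close copies, and Bad (Gpr137) at -1.95 ± 0.59. Of 254 zinc finger genes, a large family of DNA-binding proteins, 26 had more and 30 fewer (median -0.43, with -0.67 to 0.31 over the alternative settings). Of 178 solute carriers, the membrane transporters, 16 had more and 43 fewer (median -0.51). The shares of all protein-coding genes were 10.9% with more and 18.9% with fewer.

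**Figure D3:**
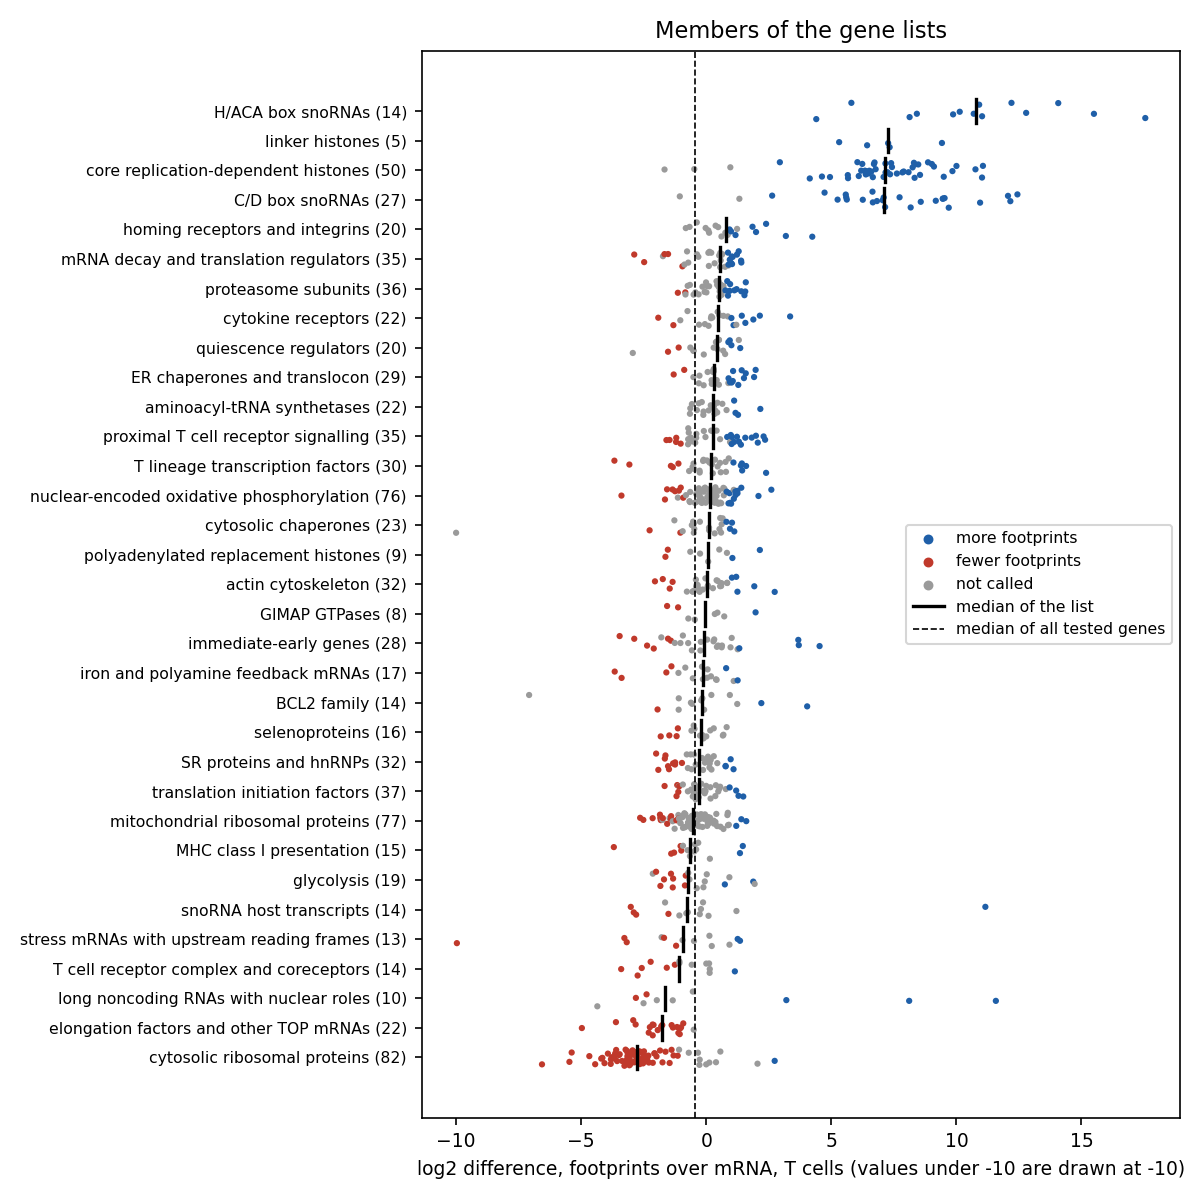
Log2 difference of footprints over mRNA in T cells for every tested member of 33 gene lists, ordered by median; each point is a gene, blue with more and red with fewer footprints at an adjusted p under 0.05, grey not called, the black bar is the list's median and the dashed line the median of all tested genes (-0.44). Ribosomal proteins and the other TOP mRNAs lie lowest (medians -2.78 and -1.78), histones and snoRNAs highest, and most other lists spread to both sides.

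Some protein-coding genes had mRNA counts and no footprint at all. Of 8441 protein-coding genes with a mean of at least 10 CPM in RNA-seq, 159 (1.88%) had 0 footprint counts in both libraries. Of these 119 (74.8%) overlap another annotated gene, against 45.9% of the 8282 genes with footprints. The 10 protein-coding genes with the lowest ratio were all of this kind, so their folds are bounds against 3 counts over both footprint libraries. Wdr38 (ENSMUSG00000035295, chr2:38998309-39001584), which overlaps the ribosomal protein gene Rpl35, had 928 and 788 CPM in RNA-seq and was at least 226-fold lower in footprints. Pde6h, a subunit of the phosphodiesterase of cone photoreceptors (ENSMUSG00000064330, chr6:136952218-136963485), had 564 and 728 CPM and was at least 170-fold lower, and overlaps no gene of that table. Slc26a10 (overlapping B4galnt1) was at least 120-fold lower and Snx22 (Ppib) at least 56.3-fold. Pmel, Avpr2, Dnah14, Degs2 and Myo1h, each overlapping another gene, were at least 34.9, 33.6, 32.8, 26.9 and 21.1-fold lower. The part of the neighbouring genes' reads in these counts was not tested.

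Many long noncoding RNAs lacked footprints. Of 472 long noncoding RNA genes tested 198 (41.9%) had fewer footprints, 9 (1.91%) more, and 234 had no footprint count. They entered the test largely through RNA-seq, so these shares describe the genes measured and are no test of the class. Of 10 long noncoding RNAs with known nuclear roles 2 had fewer and 3 more (median -1.66, which changed sign among the alternative settings). Malat1, an abundant nuclear RNA, still had 70.6 and 215 CPM in footprints against 289 and 340 (-1.34 ± 0.46, adjusted p = 0.0550). Neat1, the scaffold of paraspeckles, stood at -2.81 ± 0.80 and Tug1 at -2.39 ± 0.40. Of 14 host transcripts of snoRNAs 4 had fewer and 1 more, and all 14 overlap another gene; the 1 was Dancr, which holds Snora26. The pseudogenes Tpt1-ps3 (300 and 292 CPM in RNA-seq), Rps6-ps4 and Rpsa-ps10 had 0 footprint counts and were at least 78.0, 67.7 and 52.0-fold lower. The antisense transcript Junos had 278 CPM in RNA-seq library 1, 35.7 in library 4 and no footprints (at least 41.4-fold lower).

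Most of the highest ratios belonged to RNAs that RNA-seq hardly counted. Of all footprint counts, 9.51% in library 1 and 18.9% in library 2 lay on genes of small nuclear or nucleolar RNAs. In RNA-seq libraries 1 and 4 the shares were 0.0107% and 0.0101%. These RNAs guide the modification and splicing of other RNAs and are not translated. Snora23 had 3560 and 647 footprint counts and none in RNA-seq, and was at least 30640-fold higher. Only 14 of 40 H/ACA and 27 of 98 C/D box snoRNA genes passed the filter on low counts, nearly all through footprints, so their calls (14 and 25 with more footprints) had to follow and are given as a description. Both small Cajal body RNAs that passed the filter, of 9, were called too. Snora23 lies within Ipo7.

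Replication-dependent histone mRNAs end in a stem-loop in place of a poly(A) tail. They took 1.29% and 1.02% of footprints and 0.0162% and 0.0101% of RNA-seq counts. Of 64 core histone genes 50 passed the filter, mostly through footprints, so their calls (47 with more, median 7.13, and all 5 linker histone genes) had to follow and are given as a description. Hist1h4f had 298 and 186 CPM in footprints against 0.213 and 0.227 in RNA-seq, with 2 counts in each RNA-seq library, a pooled ratio of 1266 (95% counting interval 487 to 4687). Hist1h1d, a linker histone, had 285 and 300 CPM against 2.13 and 1.59, a log2 difference of 7.27. Of the 9 tested genes on the list of replacement histones, 2 had more footprints, 2 fewer, and the median was 0.08. Which of their mRNAs carried a poly(A) tail in these cells was not measured. H2afx stood at 2.14 ± 0.30 and H2afj at -1.63 ± 0.28. All RNA-seq libraries were made with 1 kit, and all footprint libraries with the other protocol from cells given cycloheximide. Translation, library preparation and that treatment thus cannot be told apart for any gene, with or without a poly(A) tail.

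Markers of other cells were present in every T cell library. The 21 B cell markers took 0.413% and 1.01% of footprints in libraries 1 and 2, and 0.664% and 0.227% of RNA-seq counts in libraries 1 and 4. In the B cell libraries the same list took 11.2% and 9.57% of footprints and 6.74% and 5.89% of RNA-seq counts. Footprint library 2 thus held more counts of B cell markers than of the T cell markers given above (0.667%). In T cells 5 of the 21 passed with more footprints and 0 with fewer (median 1.53). H2-Aa, an MHC class II chain, had 373 and 951 CPM in footprint libraries 1 and 2 against 40.6 and 133 in RNA-seq (2.89 ± 0.62, adjusted p = 0.0107). H2-Eb1 (2.50 ± 0.73) and Cd74 (2.49 ± 0.56) moved alike, and footprint library 2 was the highest for all 3. Within RNA-seq all 3 were higher in library 4 than in library 1, with Cd74 at 356 against 154 CPM. The whole list went the other way there, with its larger share in library 1, so these 3 do not stand for the list. The number of B cells in each library cannot be told from such counts. The 12 natural killer markers took 0.0863% and 0.0828% of footprints against 0.0199% and 0.0274% of RNA-seq counts. Of the 10 tested 3 had more footprints: Gzma (Cdc20b; 425 and 379 CPM against 51.8 and 71.4; 2.71 ± 0.28), Gzmb (2.49 ± 0.40) and Prf1 (1.73 ± 0.33), all of them genes that cytotoxic T cells also express. The 19 macrophage and neutrophil markers took 0.0497% and 0.0528% against 0.0236% and 0.0682%, and 2 of 12 passed with more, S100a9 among them (4.45 ± 0.76). C1qa, a complement gene of macrophages, had 36.8 and 7.15 CPM in footprints and 0.532 and 98.6 in RNA-seq. The erythroid and platelet list reached at most 0.00513% of any T cell library, and 1 of its 3 tested genes, Car2, passed with more footprints. The part of these cells in the results above was not tested.

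The same comparison was made in B cells. Over 11059 protein-coding genes measured in both cell types the log2 differences of T and B cells correlated with a rho of 0.66 (r = 0.61, across genes). Of 943 protein-coding genes with more footprints in T cells, in the fit of all 8 libraries, 884 had a positive value in B cells and 431 passed there, and of 1843 with fewer, 1796 were negative and 923 passed. As a background, B cell calls over all 13227 genes of that fit were 861 on the side of more and 1623 on the other. The signs of all protein-coding genes in B cells were not counted, so the 884 and 1796 have no such background. Genes without a footprint count could be negative only. In that fit the ribosomal protein median was -2.83 in T cells and -2.70 in B cells, that of the other TOP mRNAs -1.83 and -1.54, and that of the homing receptors 0.76 and 1.46. Cxcr4 stood at 4.03 in B cells, Lnpep at 5.25, Rpl12 at -6.93 and Tpt1 at -5.01. Ramp3 stood at -4.31 ± 11.1, which its standard error leaves without a direction, and Id3 at 0.05 ± 0.58. The difference between T and B cells was tested as an interaction over 13227 genes. None passed in edgeR (0 of 13227, 0%, smallest adjusted p = 0.818), with 748 at an unadjusted p under 0.05, and DESeq2 called 10. With the library number as a replicate block, edgeR called 19 higher and 68 lower in T cells. Both T cell assays share only the number 1, so in the fit with that block the T cell ratio rested on the number 1 libraries alone. The numbers were not taken as pairs. The edgeR test without that block thus showed no single gene's ratio to be particular to T cells. A p above the threshold does not show that the cell types are alike.

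**Figure D4:**
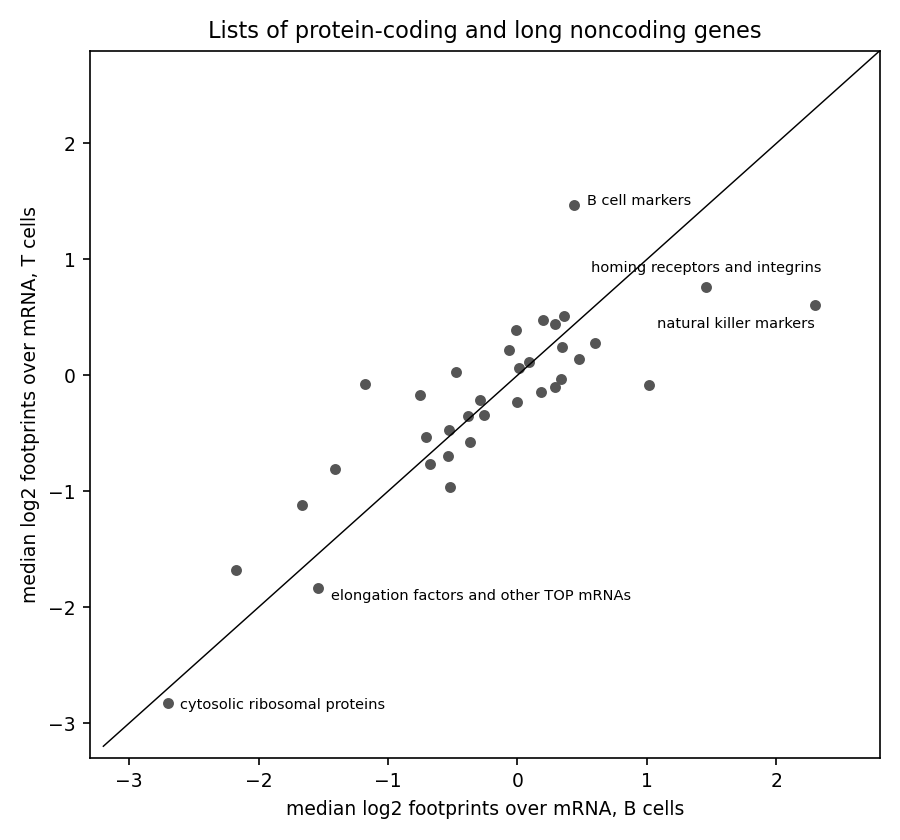
Median log2 difference of footprints over mRNA in B cells (x axis) and T cells (y axis), from the fit of all 8 libraries, for gene lists with at least 5 tested members other than replication-dependent histones and snoRNAs; each point is a list and the line marks equal values. Ribosomal proteins lie lowest in both (-2.83 in T cells and -2.70 in B cells), and the natural killer markers lie far from the line (0.61 in T cells and 2.30 in B cells).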

How the data were processed

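Per the labels and the values, the authors deposited raw counts for 53801 gene IDs in each library. FastQC, Bowtie2, TopHat, HTSeq and the mm10 build appear in the submitters' processing notes. Versions, settings, counted feature and handling of strand: not given in the sources used here. A names table gave 53620 IDs a symbol, and RefSeq (GRCm38.p6) supplied a gene class for 38371 of them, positions, overlaps and start sequences.

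The 4 T cell libraries entered 1 model in edgeR 4.0.16 (R 4.3.3): TMM factors, genes kept by filterByExpr (min.count 10, min.total.count 15), quasi-likelihood F test of footprints against mRNA with 2 residual degrees of freedom, Benjamini-Hochberg at 0.05. T cells were set against B cells as an interaction over all 8 libraries, with 4. CPM use totals scaled by TMM, and counting intervals (95%) cover counting error only. The members and the 42 gene lists were chosen with earlier results of these data known. Genes were named by rule: the 10 protein-coding and 4 noncoding genes at each end among those that passed with separated libraries, at least 10 CPM in RNA-seq and, for the upper 10, 20 in footprints, without histones, receptor segments and predicted names; up to 3 members per list in the direction of its median and 1 in the other; and some given whatever their result, such as Actb, Gapdh and Cd4. Alternatives were DESeq2 1.42.0, voom in limma 3.58.1, RLE and upper-quartile scaling, TMM factors from protein-coding genes, other filters, protein-coding genes only, a threshold of 1.5-fold, thinned RNA-seq, a fit of all 8 libraries and leaving out each library. A restriction to protein-coding genes without overlap was added after seeing the data. A few genes that the rule names are not reported here. The fits were tested on simulated data.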

Additional observations from a re-analysis of the deposited data

How the results depend on the processing

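The count of genes with fewer footprints (2667) was 1496 in DESeq2, 1083 in limma voom, 667 with RNA-seq thinned to the depth of footprint library 2, 788 among protein-coding genes that overlap no other gene (chosen after seeing the data) and 1143 to 2407 with 1 library left out. The count with more footprints (1375) was 559 thinned, 607 without overlapping genes, 908 against a 1.5-fold change and 715 to 1545 with 1 library left out; both lowest counts came without footprint library 1. Thinning left 3246 genes to test and the restriction to genes without overlap 5568; for the other alternatives the cause was not tested. Single genes kept their direction and side of the threshold in 2664 of the values computed under alternatives, lost the call in 187, gained it in 22 and changed sign in 18, most of these near 0 or in thinly counted genes. In limma voom C1qa was 1.96, Fcgr3 0.39, Hbb-bs 1.66 and Fth1 -0.023. Cd4 was -0.25 thinned and -0.0437 with all 8 libraries, where Fth1 was -0.017, and Klf2 was 0.054 with TMM factors from protein-coding genes and 0.048 with those genes alone. Leaving out 1 library gave Actb -0.0599 to 1.16, C1qa -2.76 to 5.58, Cd4 -0.33 to 0.34, Fth1 -0.17 to 0.33, Hbb-bs -7.13 to 0.22, Klf2 -0.41 to 0.27, Odc1 -0.25 to 1.02, Snord104 -2.20 to 0.50 and Trac -0.13 to 0.43.

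No paired analysis of T cells was made because the labels of footprints and RNA-seq share only the number 1. For T against B cells, DESeq2 called 10 genes (8 higher and 2 lower in T cells), a fit with the number as a replicate block called 87 (19 higher and 68 lower), and leaving out any library called 0. In the fit with the replicate block the T cell ratio rested on the number 1 libraries alone. Deviations of same-numbered B cell libraries correlated at -0.0087 over 13227 genes. Counting error at the depth of the footprint libraries lowers such a correlation, so it cannot decide whether a number marks shared mice. The labels do not say what a number stands for, and the numbers were not taken as pairs. At 1.59 and 7.33 CPM per footprint count, by totals before TMM scaling, depth limits values of genes under about 20 CPM.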
